A study of Mus musculus with 6 samples.

Results

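The 38 genes described here encode proteins of DNA replication and mitosis: the Mcm2 to Mcm7 helicase and its loading factors, enzymes of deoxynucleotide synthesis, cyclins and kinases of the cell cycle, and proteins of chromosomes, kinetochores and spindle. They were chosen by gene symbol, and all 38 were among the 27634 symbols of the deposited table. RNA came from cells labelled as cancer-associated dendritic cells of C57BL/6 mice bearing ID8-Defb29/Vegf-a tumours, which derive from a mouse ovarian cancer line. All mice received siRNA in rhodamine-conjugated polyethylenimine nanocomplexes, a polymer carrier taken up by phagocytes, with a dose of 100 µg and a time of 32 to 38 days given in the labels. The siRNA was non-targeting (NT), with Satb1 status given as wildtype, or against Satb1, with status given as knockdown. Satb1 encodes a protein that organises chromatin. The labels name 2 experiments by how far Satb1 was reduced. The high experiment, with the strong reduction, had 2 libraries for each siRNA, and the low experiment, with the weak one, had 1 library for each. The siRNA was given to whole mice, so that any cell able to take up the carrier could receive it, and the sources used here do not give the ages of the mice, how the cells were sorted or whether animals were pooled.

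Genes of this kind are switched on in waves as a cell divides. Transcription factors of the E2F family drive genes of origin licensing and DNA synthesis towards S phase, while genes of mitosis are induced later, through promoter elements called CHR and CCAAT boxes and through factors such as B-Myb and FoxM1. Differentiated dendritic cells and macrophages divide little, whereas their precursors, some resident macrophages and tumour cells can divide, so that the summed level of these genes in a bulk sample depends on which cells it holds.

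Promoter stretches of 7 members are shown because they carry, or lack, the elements for which the gene set is known, and because these members include the largest fall among the helicase genes (Mcm5), a mitotic gene with opposite signs in the experiments (Cdc20) the member that rose (Tyms) and 1 of the 2 that were not called (Birc5; the other, Cdt1, holds an E2F site within the 50 bases after its start, outside the stretches shown). The sequences are from RefSeq, build GRCm38.p6, whereas the expression values were made on mm9, and each runs 5′ to 3′ on the gene's strand up to the base before the transcription start. Capitals mark an E2F site (TTTGGCGC or TTTCGCGC), a CHR (TTTGAA) or a CCAAT box (CCAAT), on either strand, so that ATTGG is a CCAAT box and TTCAAA a CHR of the other strand.
Mcm5 (chr8:75109349-75109508, plus strand): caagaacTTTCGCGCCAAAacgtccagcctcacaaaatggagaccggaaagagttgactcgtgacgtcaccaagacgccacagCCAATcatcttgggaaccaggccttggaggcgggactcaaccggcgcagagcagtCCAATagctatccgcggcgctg
Mcm6 (chr1:128359706-128359865, minus strand): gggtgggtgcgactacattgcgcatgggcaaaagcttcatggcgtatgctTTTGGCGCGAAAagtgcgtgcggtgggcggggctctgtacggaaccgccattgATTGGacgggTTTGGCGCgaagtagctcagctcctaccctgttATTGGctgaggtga
Cdk1 (chr10:69352913-69353052, minus strand): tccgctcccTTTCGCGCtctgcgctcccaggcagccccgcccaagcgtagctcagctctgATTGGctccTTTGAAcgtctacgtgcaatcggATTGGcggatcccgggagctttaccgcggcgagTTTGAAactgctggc
Cdc20 (chr4:118437344-118437443, minus strand): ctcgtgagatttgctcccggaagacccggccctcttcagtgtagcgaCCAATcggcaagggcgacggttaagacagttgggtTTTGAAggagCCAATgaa
Top2a (chr11:99024190-99024289, minus strand): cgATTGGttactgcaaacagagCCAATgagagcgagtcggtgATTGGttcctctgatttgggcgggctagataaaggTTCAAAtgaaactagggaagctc
Tyms (chr5:30073626-30073725, minus strand): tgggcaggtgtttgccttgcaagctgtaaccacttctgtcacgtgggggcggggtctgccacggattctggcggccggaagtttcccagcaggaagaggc
Birc5 (chr11:117849137-117849236, plus strand): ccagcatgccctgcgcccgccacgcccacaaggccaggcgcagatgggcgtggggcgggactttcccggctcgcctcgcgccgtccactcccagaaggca

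The E2F site and the CHR were unevenly spread over the roles, and the CCAAT box was found in all of them. In Mcm5 and Mcm6 an E2F match on one strand overlapped an E2F match on the other, so that 1 run of capitals holds both. The RefSeq table matched 31 of the 38 genes, with windows of 250 bases before to 50 bases after the start. An E2F site was present in the window of 7 of these 31 genes (22.58%), against 1.301% of 14065 genes of the deposited table with a promoter. It was found in 6 of 9 genes of licensing and fork (Mcm3, Mcm5, Mcm6, Mcm7, Cdt1 and Uhrf1) and in 1 of 7 regulators, Cdk1, and in 0 of the 15 other genes. A CHR was present in 12 genes (38.71% against 17.63% of the table's genes), and all 12 also held a CCAAT box (38.71% against 8.091%). By role, the CHR was in 1 of 9 genes of licensing and fork, 0 of 4 of deoxynucleotide synthesis, 4 of 7 regulators, 4 of 6 genes of chromosomes and spindle and 3 of 5 of the spindle checkpoint. A CCAAT box was present in 23 genes (74.19% against 42.32%), by role in 7 of 9, 2 of 4, 5 of 7, 5 of 6 and 4 of 5 in the same order. A match describes letters in this window and is not a measured binding site. Of the 31 genes, 7 were without any of the 3 elements in the window, Tyms and Birc5 among them. Their log2 fold changes in the high experiment, given below, ran from -1.20 (Ccne1, the largest fall of the set) to 0.17 (Tyms), with a median of -0.32. The medians were -0.41 for genes with an E2F site, -0.56 with a CHR and -0.54 with a CCAAT box.

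Total counts were 24553454 to 71272720 per library, so that 3 counts, the limit that a count of 0 allows, correspond to 0.0421 to 0.122 counts relative to the library total (CPM). The repeats of each high group were close to sequencing noise, with a chi-square per gene of 1.202 (NT) and 1.370 (Satb1 siRNA), against about 1 from counting alone. They were therefore counted as 1 sample per group for any statement about the conditions, and standard errors and p-values for the high experiment compare these libraries. Satb1 stood at 1233 and 1193 counts with NT and 184 and 200 with Satb1 siRNA in the high experiment, and at 170 with NT and 165 with Satb1 siRNA in the low experiment. The low log2 ratio was -0.26 with an exact 95% counting interval of -0.58 to 0.058, so a reduction of Satb1 was not detectable there at this depth. Levels below are CPM scaled by the trimmed mean of M-values (TMM) over the 6 libraries, unless FPKM (also relative to transcript length) is named. The dendritic cell markers that were checked summed to 217 and 219 CPM in the high NT libraries and 2134 CPM in the low NT library. Macrophage and monocyte markers summed to 7230 and 7238 and to 17500 CPM there. Flt3 was at 0.875 and 1.05 CPM and Zbtb46 at 4.78 and 4.93 CPM in the high NT libraries. These 2 of the 10 listed dendritic cell markers were thus detected at low levels in those libraries. Itgax, another of the 10, was at 20.3 and 20.2 CPM there. With Satb1 siRNA in the high experiment Itgax was lower (log2 fold change -1.95), while Flt3 (0.85) and Zbtb46 (0.21) were higher. In the low experiment Flt3 was at 16.4 CPM with NT and 41.5 CPM with Satb1 siRNA, and Zbtb46 at 9.78 and 24.5 CPM.

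Summed over the 38 genes, the level was lower with Satb1 siRNA in the high experiment and higher in the low experiment. The sum was 1579 and 1578 CPM in the high NT libraries and 1188 and 1183 CPM in the high Satb1 siRNA libraries. It was 1304 CPM in the low NT library and 1567 CPM in the low Satb1 siRNA library. The log2 ratio of Satb1 siRNA to NT was thus -0.41 in the high experiment and 0.27 in the low experiment, or -0.35 and 0.62 with scaling by library size alone. In bulk samples, fewer dividing cells and less of these RNAs in each cell cannot be told apart. Across genes, the deposited FPKM put Pcna, the sliding clamp of DNA polymerases, first in the high NT libraries, at 192 and 191 FPKM. Mcm6 (37.97 and 37.61), the mitotic kinase gene Plk1 (38.07 and 37.53) and Top2a (32.05 and 31.43) followed, and the values of Mcm6 and Plk1 overlapped. The lowest was Foxm1, at 0.82 FPKM in both.

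**Figure D1:**
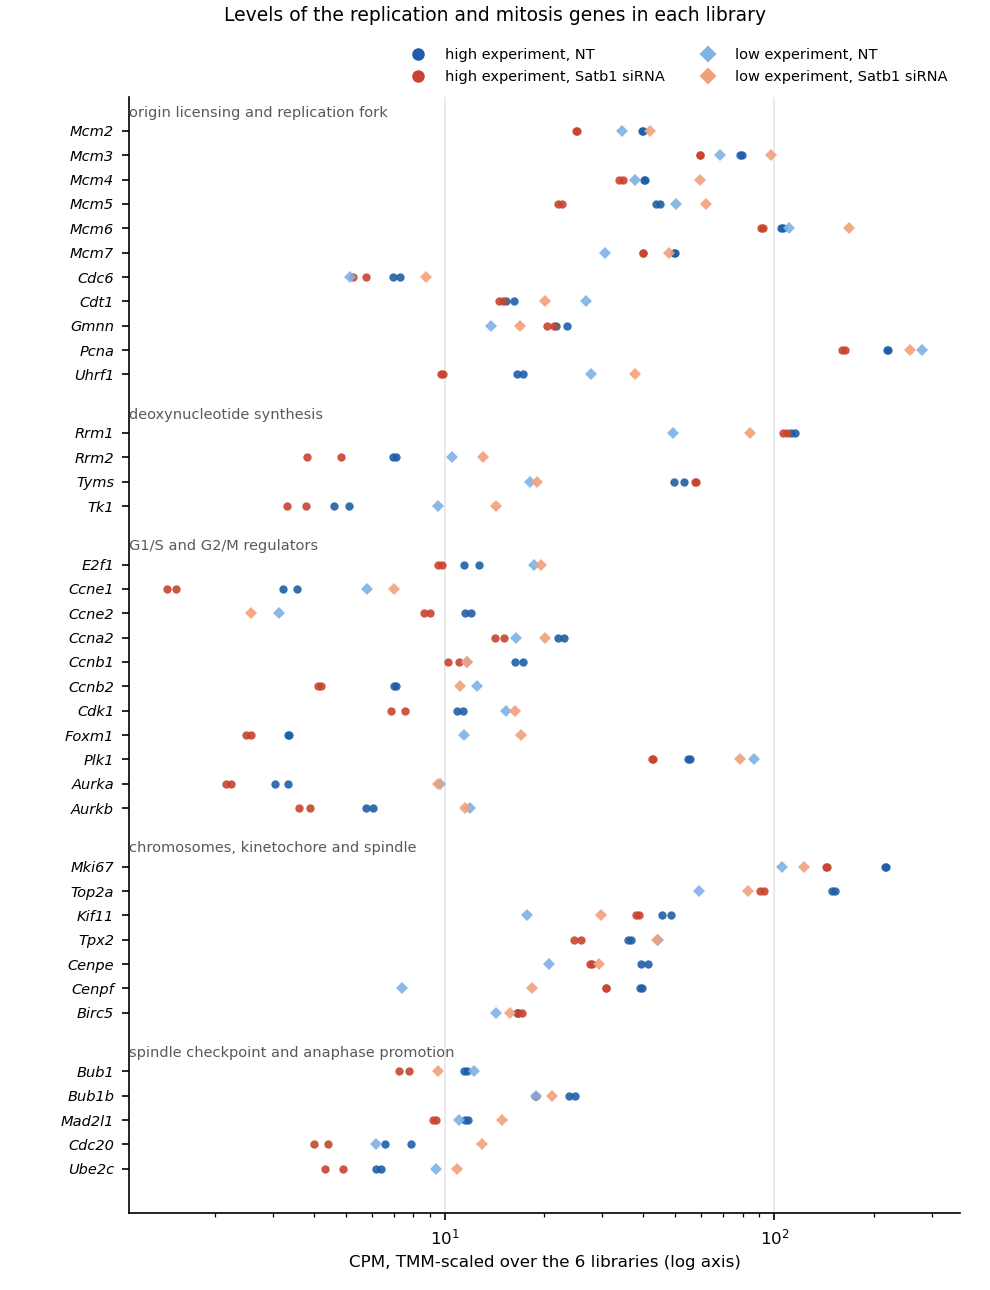
TMM-scaled CPM of each of the 38 genes (log axis) in each of the 6 libraries, with circles for the high experiment and diamonds for the low one. In 36 of 38 genes both high Satb1 siRNA points lie to the left of both high NT points, Tyms lies to the right and Birc5 overlaps.

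In the high experiment the genes were lower with Satb1 siRNA in nearly every role group, by modest amounts. Of the 38 genes, all tested, 35 were lower at an adjusted p under 0.05 (edgeR's quasi-likelihood test, Benjamini-Hochberg over 20242 genes), 1 was higher and 2 were not called. Among all genes tested, 33.2% were called lower and 32.8% higher, 66.0% in all. The median log2 fold change was -0.44, against 0.011 for all genes. Of the 38, 1 gene was at least 2-fold lower, where 3.94% of all genes were. In 36 of 38 genes (94.7%) both Satb1 siRNA libraries lay below both NT libraries, against 41.1% of all genes.

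Origin licensing and the replication fork comprised 11 genes, of which 10 were lower and 1, Cdt1, was not called, with a median log2 fold change of -0.36. The subunits of the MCM helicase, which unwinds DNA at the fork as a single complex, were lower by unequal amounts. Mcm5 stood at 45.1 and 43.7 CPM with NT and at 22.03 and 22.6 CPM with Satb1 siRNA, a log2 fold change of -0.99 (SE 0.033, edgeR adjusted p = 1.65e-39). Mcm2 stood at 39.7 and 39.9 CPM against 25.0 and 25.2 CPM, a log2 fold change of -0.66 (SE 0.033, edgeR adjusted p = 2.32e-29). The Satb1 siRNA libraries were well below the NT libraries for both genes, which do not overlap. Mcm6, at 106 and 105.04 against 92.5 and 91.1 CPM, had the smallest change of the subunits, -0.20 (SE 0.022, edgeR adjusted p = 2.40e-12). Mcm3, Mcm7 and Mcm4 lay between, at -0.41, -0.31 and -0.23. Cdc6, which loads the helicase together with Cdt1, was lower by -0.36.

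Cdt1, the loading factor, and Gmnn, which encodes its inhibitor geminin, changed least in this group. Cdt1 stood at 15.3 and 16.1 CPM with NT and 14.999 and 14.5 CPM with Satb1 siRNA, a log2 fold change of -0.087 (SE 0.048, edgeR adjusted p = 0.104). Its libraries do not overlap after TMM scaling, but the gap is small beside the spread of the repeats. By library size alone they overlapped, at 16.8 and 17.7 CPM with NT and 17.1 and 16.6 CPM with Satb1 siRNA. Gmnn, at 23.5 and 21.7 against 20.3 and 21.4 CPM, was lower by -0.11 (SE 0.041, edgeR adjusted p = 0.0166), and its groups almost touch. The Gmnn call ended without NT replicate 1 (adjusted p = 0.322), without Satb1 siRNA replicate 1 (adjusted p = 0.206), in DESeq2 (adjusted p = 0.133) and with scaling by library size alone (edgeR adjusted p = 0.240). Pcna stood at 221 and 219 CPM against 161 and 164 CPM, a log2 fold change of -0.43 (SE 0.016, edgeR adjusted p = 6.41e-38). Uhrf1, which binds hemimethylated DNA behind the fork and brings in the maintenance methyltransferase, went from 16.5 and 17.2 to 9.73 and 9.83 CPM, a log2 fold change of -0.78 (SE 0.052, edgeR adjusted p = 3.05e-22). Both genes have Satb1 siRNA libraries clearly below the NT libraries.

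The 4 genes of deoxynucleotide synthesis did not move together. Rrm1 and Rrm2 encode the large and the small subunit of ribonucleotide reductase. Rrm2, whose level is known to follow S phase, stood at 7.10 and 6.92 CPM with NT and at 4.83 and 3.79 CPM with Satb1 siRNA, a log2 fold change of -0.69 (SE 0.085, edgeR adjusted p = 2.41e-10). Rrm1, at 113 and 116 against 109 and 106 CPM, was lower by -0.080 (SE 0.021, edgeR adjusted p = 8.17e-04), a call that ended with scaling by library size alone (edgeR adjusted p = 0.279). The subunit genes thus differ in size of change, with separated libraries in both after TMM scaling. By library size alone the Rrm1 libraries overlapped, at 123 and 127 CPM with NT and 124 and 121 CPM with Satb1 siRNA. Tyms, the gene of thymidylate synthase, was the only member that rose, from 53.2 and 49.4 to 57.3 and 57.8 CPM, a log2 fold change of 0.17 (SE 0.029, edgeR adjusted p = 1.28e-06). Tk1, which encodes the thymidine kinase of the salvage pathway, was lower by -0.45.

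All 11 regulators of the G1/S and G2/M transitions were lower, with a median of -0.61, the lowest of the 5 role groups. The E-type cyclins, which activate Cdk2 at the entry into S phase, included the largest change of the whole set. Ccne1 stood at 3.22 and 3.55 CPM with NT and at 1.42 and 1.52 CPM with Satb1 siRNA, a log2 fold change of -1.20 (SE 0.12, edgeR adjusted p = 1.57e-13). Its paralog Ccne2, at 11.5 and 11.9 against 8.63 and 8.99 CPM, was lower by -0.41. Libraries of both cyclins were separated, and Ccne1 changed on a level near 3 CPM. The transcription factor gene E2f1 was lower by -0.31 and Foxm1 by -0.39.

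Cyclins and kinases of mitotic entry were lower by amounts from -0.36 to -0.76. Ccna2, whose product acts in S phase and G2, stood at 22.0 and 23.0 against 14.2 and 15.1 CPM, a log2 fold change of -0.62 (SE 0.043). The B-type cyclin genes were at -0.65 for Ccnb1 and -0.76 for Ccnb2. Their partner kinase gene Cdk1 went from 11.3 and 10.8 to 7.54 and 6.87 CPM, a log2 fold change of -0.61 (SE 0.064, edgeR adjusted p = 1.27e-13). These 4 genes of the mitotic cyclin-kinase complexes were all called, with no overlap of libraries. Aurkb, the kinase of the chromosomal passenger complex, was at -0.65, the centrosomal Aurka at -0.53 and Plk1 at -0.36.

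Among the 7 genes of chromosomes, kinetochore and spindle, 6 were lower and Birc5 was not called, with a median of -0.52. Mki67, which encodes the proliferation marker Ki-67 that coats mitotic chromosomes, stood at 218 and 217 CPM with NT and 144 and 143 CPM with Satb1 siRNA, a log2 fold change of -0.59 (SE 0.016). Top2a, the topoisomerase that untangles replicated DNA, stood at 152 and 149 against 92.7 and 90.5 CPM, a log2 fold change of -0.72 (SE 0.021, edgeR adjusted p = 1.44e-43). Both genes sit far apart between siRNAs in relation to their repeats. The spindle assembly factor gene Tpx2 (-0.52) and the kinetochore motor gene Cenpe (-0.54) were close to the median. Cenpf (-0.35), of the outer kinetochore, and the spindle motor gene Kif11 (-0.29) changed less.

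Birc5, which encodes survivin of the chromosomal passenger complex, stood at 16.5 and 16.7 CPM with NT and at 17.1 and 16.6 CPM with Satb1 siRNA, a log2 fold change of 0.029 (SE 0.045, edgeR adjusted p = 0.583). Its libraries overlapped, while those of its partner kinase gene Aurkb did not. The deposited FPKM of Birc5 went another way than its counts, at 9.16 and 9.45 with NT and 7.33 and 6.26 with Satb1 siRNA. FPKM of a gene depends also on the transcript length that RSEM assigns to it in each library, and no values of single transcripts were used here.

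All 5 genes of the spindle checkpoint and of anaphase promotion were lower, with a median of -0.44. Cdc20, the activator of the anaphase-promoting complex, stood at 6.56 and 7.86 CPM with NT and 3.9998 and 4.42 CPM with Satb1 siRNA, a log2 fold change of -0.78 (SE 0.087, edgeR adjusted p = 1.09e-10). The NT repeats of Cdc20 lie further apart than those of most members, but the groups do not overlap. The checkpoint kinase gene Bub1 was at -0.61, Bub1b at -0.37 and Mad2l1, whose product holds Cdc20 in check, at -0.32. Ube2c, which encodes a ubiquitin-conjugating enzyme of the anaphase-promoting complex, was at -0.44. The deposited FPKM of Ube2c overlapped between the groups, at 7.29 and 7.93 with NT and 6.77 and 7.44 with Satb1 siRNA.

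Other genes of replication and mitosis moved in the same direction, with more exceptions. For comparison, 33.2% of all genes tested were called lower and 32.8% higher. Of 45 further replication genes 35 were lower, 4 higher and 6 not called (median -0.30), and of 52 further mitosis genes 39 were lower, 2 higher and 11 not called (median -0.40). Prim1, the catalytic primase subunit gene, and Gins3, of the replicative helicase, were both lower by -0.71, the largest among the replication genes at this level. The 4 higher calls among replication genes were 2 without NT replicate 1 or without Satb1 siRNA replicate 2, 1 without NT replicate 2 and 0 in DESeq2. Kntc1, of the kinetochore, was lower by -1.13 and the cyclin gene Ccnf by -0.95. Of 21 G1 cyclin, kinase and E2F family genes 10 were lower, 2 higher and 9 not called (median -0.15), with 1 higher without NT replicate 1, without Satb1 siRNA replicate 1 or in DESeq2. Mybl2, which encodes B-Myb, was lower by -1.05 and E2f4, which encodes a repressive E2F, by -0.61.

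Most of the listed genes whose products restrain the cell cycle were called lower too. Of 20 such genes 14 were lower (33.2% of all genes), 4 higher (32.8%) and 2 not called (median -0.19). Cdkn1a, which encodes the cyclin-dependent kinase inhibitor p21, stood at 29.7 and 29.3 CPM with NT and 13.05 and 13.4 CPM with Satb1 siRNA, a log2 fold change of -1.15 (SE 0.041). Gadd45b, a stress-induced gene, was lower by -1.11. The 4 called higher were Wee1 (0.56), Cdkn1b (0.19), Rbl2 (0.16) and Cdkn2d. Cdkn2d had counts of 0 and 0 with NT and 123 and 135 with Satb1 siRNA, but a deposited FPKM of 0 in every library. Most genes of both kinds, those that drive and those that restrain division, were thus called lower in the same libraries. Of 17 inhibitors that passed the level filter of the low experiment, 6 were at least 1.5-fold lower (12.2% of all genes) and 1 at least 1.5-fold higher (15.6%) with Satb1 siRNA, and 5 had a ratio above 0, with Cdkn1a at 912 CPM with NT and 477 CPM with Satb1 siRNA (log2 ratio -0.94).

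**Figure D2:**
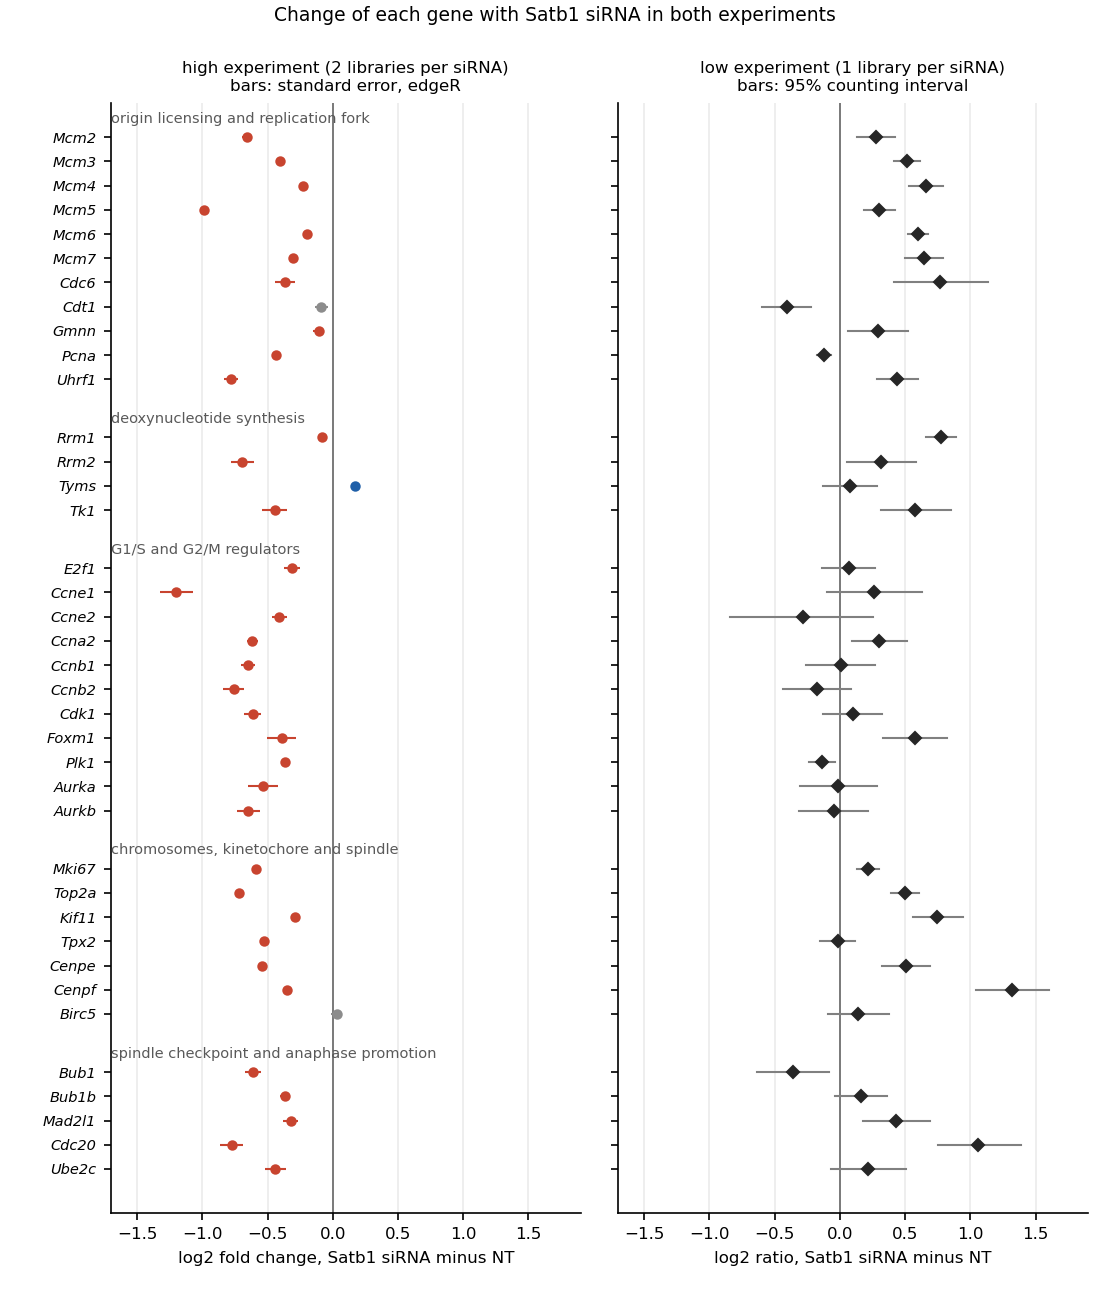
Log2 difference of Satb1 siRNA minus NT for each gene, at left in the high experiment (2 libraries per siRNA, bars are edgeR standard errors, red called lower, blue called higher, grey not called) and at right in the low experiment (1 library per siRNA, bars are 95% counting intervals). At left the points run from -1.20 (Ccne1) to 0.17 (Tyms), and at right from -0.41 (Cdt1) to 1.32 (Cenpf).

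In the low experiment, with 1 library per siRNA and no test, more genes were higher than lower with Satb1 siRNA. Of the 38 genes 29 had a log2 ratio above 0, 8 were at least 1.5-fold higher and 0 were at least 1.5-fold lower, where 15.6% of 13700 genes were that much higher and 12.2% that much lower. The median ratio was 0.28, against -0.059 for all genes. The exact 95% counting interval lay above 0 for 21 genes (25.9% of all genes) and below 0 for 4 (Cdt1, Pcna, Plk1 and Bub1). No share of all genes is given for these 4, nor for the 29 with a ratio above 0. With scaling by library size alone the whole distribution shifted, the median of all genes to 0.29 and that of the 38 genes to 0.64, and 21 were then at least 1.5-fold higher and 36 above 0. These values describe 1 pair of libraries.

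The 8 genes past 1.5-fold came from 4 of the role groups. Cenpf was the highest, at 7.37 CPM in the low NT and 18.4 CPM in the low Satb1 siRNA library, a log2 ratio of 1.32 (95% counting interval 1.04 to 1.61). Cdc20 followed with 6.17 and 12.9 CPM, a log2 ratio of 1.06 (0.75 to 1.39). Rrm1 was at 49.3 and 84.3 CPM (0.78), Cdc6 at 5.12 and 8.73 CPM (0.76) and Kif11 at 17.7 and 29.8 CPM (0.75). Of these, Rrm1 was the gene that had barely changed in the high experiment. Mcm4, Mcm7 and Mcm6, the helicase subunit genes with the smallest falls there, had the highest ratios among subunits here, at 0.66, 0.64 and 0.60. Mcm3, Mcm5 and Mcm2 were at 0.52, 0.30 and 0.28.

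No regulator of the G1/S and G2/M transitions passed 1.5-fold, and their median ratio was 0.0057, against 0.44 for licensing and fork, 0.45 for deoxynucleotide synthesis, 0.50 for chromosomes and spindle and 0.22 for the checkpoint group. Ccnb1 (11.6 CPM in both libraries), Cdk1 (15.3 and 16.3 CPM), Aurka (9.62 and 9.54 CPM) and Aurkb (11.9 and 11.5 CPM) had counting intervals that include 0, as had E2f1, Ccne1, Ccne2 and Ccnb2. The interval of Ccne2 was wide, from -0.84 to 0.26 around a ratio of -0.29. Foxm1 was the highest regulator, at 11.4 and 16.96 CPM (0.57). Cdt1 was the lowest gene, at 26.7 and 20.1 CPM, a log2 ratio of -0.41 (-0.60 to -0.22). Tk1 (0.58), Top2a (0.50), Cenpe (0.50) and Mad2l1 (0.43) were among the genes under 1.5-fold with intervals above 0.

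The experiments also differed in their controls. Relative to the high NT libraries, 10 of the 38 genes were at least 1.5-fold higher and 10 at least 1.5-fold lower in the low NT library, where 35.9% and 31.8% of all genes were. The log2 ratio ran from -2.41 for Cenpf (39.1 and 39.5 CPM against 7.37) to 1.76 for Foxm1 (3.33 and 3.35 CPM against 11.4). Regulators were mostly higher in the low NT library, with 7 of 11 past 1.5-fold and a median of 0.66, while genes of chromosomes and spindle were lower, 5 of 7 with a median of -1.04. Aurka (1.58), Aurkb (1.02) and Ccnb2 (0.82) were among the former, and Kif11 (-1.41), Top2a (-1.36), Mki67 (-1.04) and Cenpe (-0.96) among the latter. Ccne1 and Ccne2 lay on opposite sides, at 0.77 and -1.89. With scaling by library size alone 2 genes were higher and 20 lower, and the median went from -0.083 to -0.71 while that of all genes went from 0.073 to -0.56.

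Transcript length moved with the difference between the controls. Across the 38 genes the control ratio had a Pearson r of -0.49 and a Spearman rho of -0.46 with the log2 of transcript length, computed from counts and FPKM, against -0.085 and -0.15 across 12781 genes of all kinds. Mki67 (10311 bases), Cenpf (10171 bases) and Cenpe (8000 bases), the longest, all had ratios of -0.96 or below. For the low ratio of Satb1 siRNA to NT, r was 0.33 and rho 0.33 (0.15 and 0.18 in all genes), and for the high fold change r was -0.037 and rho 0.014. The genes share libraries and are not independent, and these coefficients are descriptions. Whether length or library quality has a part in the control or the low ratios was not tested. When all genes were cut by length into 4 equal bins, the 8 members in the shortest bin had a median low ratio of 0.14 and the 10 in the longest 0.54, while their high medians were -0.40 and -0.46.

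**Figure D3:**
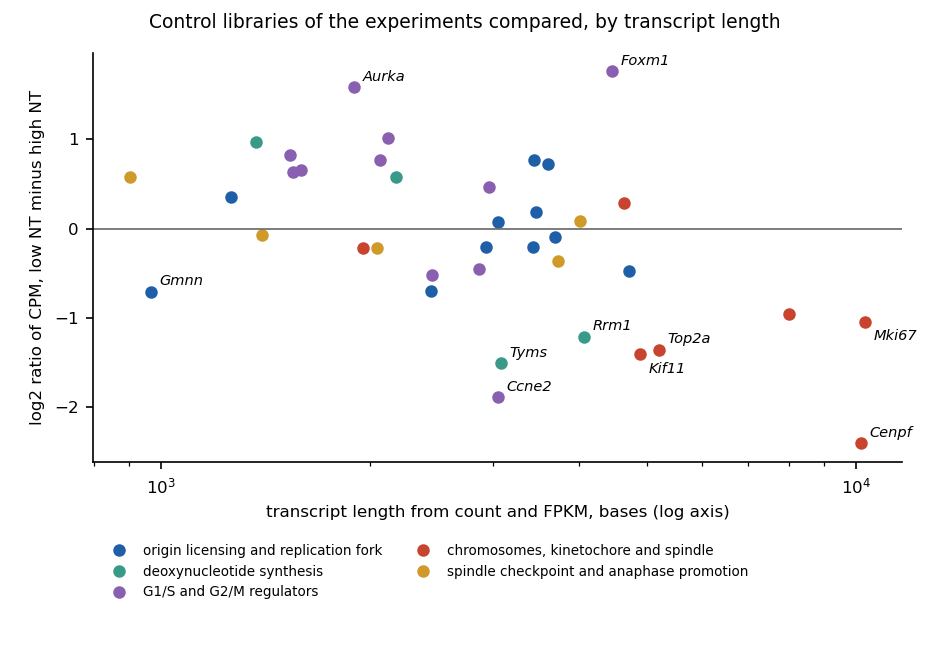
Log2 ratio of CPM of the low NT library to the mean of the high NT libraries (vertical axis) against transcript length in bases computed from counts and FPKM (log axis), with 1 point per gene coloured by role. The longest genes, at 8000 bases or more, lie at -0.96 or below, and shorter genes lie on both sides of 0.

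Between these libraries, most of the genes had a lower log2 effect of Satb1 siRNA in the high than in the low experiment. The difference of effects (high minus low) was called for 34 of 38 genes in edgeR, 33 below 0 and 1, Cdt1, above 0, where 21.8% and 17.9% of 20971 genes were called, and its median was -0.81 (-0.021 for all genes). The low groups had 1 library each, so that the spread in this test came from the near-identical high repeats (biological coefficient of variation 0.0099), and its calls compare libraries and do not show a difference between the conditions. DESeq2 called fewer of the 38 than edgeR, all below 0, and its share of all genes is not given. The largest differences were those of Cdc20 (-1.85, SE 0.18, edgeR adjusted p = 6.92e-14), Cenpf (-1.67, SE 0.13, edgeR adjusted p = 4.25e-22), Ccne1 (-1.47, SE 0.22), Mcm5 (-1.29, SE 0.069) and Uhrf1 (-1.22, SE 0.095). Tyms, Ccne2, Birc5 and Bub1 were not called, with edgeR adjusted p-values of 0.59955, 0.821, 0.505 and 0.180. Bub1 was lower with Satb1 siRNA in both pairs, at -0.61 in the high and -0.36 in the low experiment. The Cdt1 call ended with scaling by library size alone (0.022, edgeR adjusted p = 0.978), and that of Aurka without high NT replicate 1 (edgeR adjusted p = 0.0703).

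Size in one experiment did not follow size in the other. Across the 38 genes the high and low effects had an r of 0.047 and a rho of 0.13, against 0.30 and 0.33 in 12781 genes, each a description over genes that share libraries. In 27 of the 38 genes the high effect was below 0 and the low ratio above 0, a pattern of 18.0% of all genes. When repeats were summed and the experiment was a term in the fit, so that each group counted as 1 sample, 0 of 38 genes were called in edgeR, 0 were at an unadjusted p under 0.05, and DESeq2 called 0. The smallest edgeR adjusted p of a member was 0.662. Among all genes DESeq2 called 135 lower and 85 higher. The edgeR fit has 1 residual degree of freedom. It called 6 of 19068 genes (0.0315%), and 1633 genes were at an unadjusted p under 0.05. Its median effect over the 38 genes was -0.12, with 23 of 38 below 0, a count for which no share of all genes is given.

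The ratio of summed mitosis genes to summed replication genes was lower with Satb1 siRNA in the high experiment. The summed level of the 12 genes of chromosomes, spindle and checkpoint was 0.741 and 0.747 times that of the 15 genes of licensing, fork and deoxynucleotides in the high NT libraries and 0.637 and 0.633 times in the high Satb1 siRNA libraries. In the low experiment it was 0.422 times with NT and 0.434 times with Satb1 siRNA. The siRNA groups of the high experiment are separated in this ratio, and the larger step lies between the experiments. Abundant genes weigh most in such sums, with means in the high NT libraries of 217 CPM for Mki67, 151 CPM for Top2a and 220 CPM for Pcna. The regulators of G1/S and G2/M are in neither sum. Whether the ratio shifts without the abundant genes was not tested. Licensing and fork genes summed to 642 and 640 CPM with NT and 485 and 487 CPM with Satb1 siRNA in the high experiment, and genes of chromosomes and spindle to 548 and 548 against 377 and 372 CPM. In the low experiment these sums were 687 and 819 CPM for licensing and fork and 269 and 343 CPM for chromosomes and spindle.

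Markers of several other cell types differed between the siRNAs and between the experiments. The counts below stand beside shares of all genes. In the high experiment 33.2% of all genes tested were called lower and 32.8% higher. In the low experiment 15.6% were at least 1.5-fold higher and 12.2% at least 1.5-fold lower. Markers of ID8 tumour, mesothelial or epithelial cells summed to 952 and 955 CPM with NT and to 1056 and 1047 CPM with Satb1 siRNA in the high experiment, where 1 of 13 was lower, 9 were higher and 3 were not called. In the low experiment they summed to 209 CPM with NT and 737 CPM with Satb1 siRNA. All 12 that passed the level filter there were at least 1.5-fold higher, with a median log2 ratio of 1.65, in the library where the 38 genes were higher as well. Krt18, an epithelial keratin gene, was at 25.8 and 82.0 CPM and the mesothelial gene Upk3b at 40.05 and 198 CPM in the low libraries. The sum of granulocyte precursor markers was 7.73 and 7.83 against 8.24 and 8.65 CPM in the high experiment, and 181 against 48.1 CPM in the low experiment. Dendritic cell markers summed to 217 and 219 CPM with NT and 125 and 121 CPM with Satb1 siRNA in the high libraries, with 5 of 10 lower and 5 higher. Their sums of 2134 and 2330 CPM in the low libraries were mostly the MHC class II gene H2-Ab1 (1705 and 1632 CPM), while 7 of 10 markers were at least 1.5-fold higher with Satb1 siRNA and 0 that much lower, with a median log2 ratio of 0.86. Macrophage and monocyte markers went from 7230 and 7238 to 10413 and 10406 CPM in the high libraries and from 17500 to 9457 CPM in the low ones, sums in which the lysozyme gene Lyz2 held the largest share (5533 and 5545, 8382 and 8370, 12256 and 5640 CPM). Gene by gene, 7 of these 10 markers were higher, 1 lower and 2 not called in the high experiment, and 1 (Gata6, log2 ratio 1.79) was at least 1.5-fold higher and 5 that much lower in the low experiment. Lists of T and NK, B and plasma, and erythroid cells summed to between 37.6 and 200 CPM in every library. In the high experiment 5 of 8 T and NK markers tested were higher and 0 lower, 4 of 9 B and plasma markers were higher and 2 lower, and 2 of 5 erythroid markers were higher and 0 lower. Of all genes in the 8 marker lists, 3 had a count of 0 in any library: Nkg7 (T and NK) in both high Satb1 siRNA libraries, Klf1 (erythroid) in both low libraries, and Camp (granulocyte precursors) in 1 library of each high group. The part of these cells in the changes of the 38 genes was not tested.

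**Figure D4:**
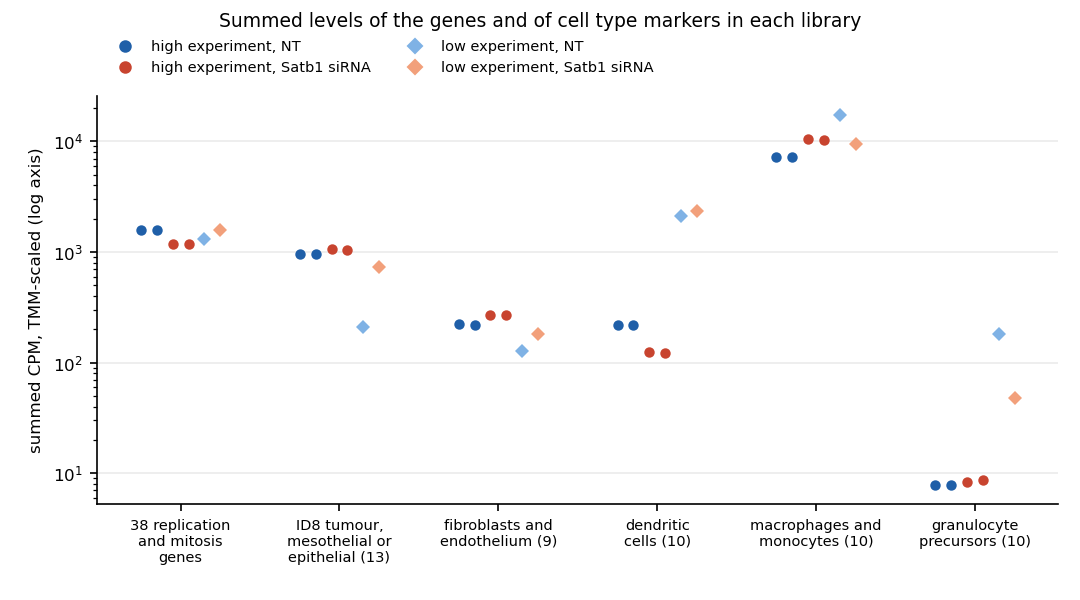
Summed TMM-scaled CPM (log axis) of the 38 genes and of 5 marker lists in each library, with the number of marker genes in brackets. In the low experiment the tumour, mesothelial or epithelial sum goes from 209 to 737 CPM while that of the 38 genes goes from 1304 to 1567 CPM.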

How the data were processed

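RNA-seq of 6 libraries was analysed from the authors' deposited table of 27634 gene symbols. Per the file headers, every gene has a count and an FPKM value in each library. The deposited counts are taken as RSEM expected counts (whole numbers), since the submitters' processing notes name RSEM 1.2.12, DESeq2 and mm9. The authors' FPKM values are per transcript length and library, and were used for levels between genes and for length. For the aligner, filters and strand handling, the sources used here give nothing. Counts went into edgeR 4.0.16 (R 4.3.3): quasi-likelihood, robust, TMM, filterByExpr, two-sided, Benjamini-Hochberg over all genes tested, threshold 0.05. Ratios without a test used CPM with a prior count of 2, for genes whose mean log2 CPM was 0 or more, and a threshold of 1.5-fold. Alternatives were DESeq2 1.42.0, other scaling, no filter, other prior counts and thresholds, a replicate block and each high library left out. The fits were tested on simulated data. Lengths came from counts of at least 100 and FPKM of at least 0.5. Intervals cover counting error only. Depth was 24553454 to 71272720 counts per library.

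The replicate numbers did not pair the high libraries (correlation of deviations -0.041). Whether repeats came from separate mice is not given, so p-values measure only the spread between these libraries, which may be technical. The members, the role groups, the other lists and the tests were chosen with earlier results of these data known. Named genes are the 38 members, Satb1, and from each pathway list the 2 largest changes of the high experiment among genes above the level minimum. The 2 tumour and mesothelial markers, Wee1, Cdkn1b, Rbl2, Cdkn2d, Flt3, Zbtb46, Itgax, H2-Ab1, Lyz2, Gata6, Nkg7, Klf1, Camp and the histone genes were named after their values were seen. Of 269 list entries 245 matched by symbol and 11 by another symbol of the gene. A further 3 repeated a gene already in the same list, and 10 were not analysed here.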

Additional observations from a re-analysis of the deposited data

Results flagged for a closer look

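The difference between the high and the low effect of Satb1 siRNA is given here as log2, high minus low. It is listed for those of the 38 genes that passed edgeR's interaction test, of which DESeq2 called fewer. The spread in this test comes from the near-identical high repeats alone, so that it compares these libraries and not the conditions. Among genes of licensing and fork it was -0.94 for Mcm2, -0.93 for Mcm3, -0.89 for Mcm4, -1.29 for Mcm5, -0.80 for Mcm6, -0.96 for Mcm7, -1.14 for Cdc6, -0.40 for Gmnn, -0.32 for Pcna and -1.22 for Uhrf1. It was 0.32 for Cdt1, the only one above 0. Among genes of deoxynucleotide synthesis it was -0.86 for Rrm1, -1.02 for Rrm2 and -1.03 for Tk1. Among regulators it was -0.38 for E2f1, -1.47 for Ccne1, -0.92 for Ccna2, -0.66 for Ccnb1, -0.59 for Ccnb2, -0.72 for Cdk1, -0.97 for Foxm1, -0.23 for Plk1, -0.53 for Aurka and -0.60 for Aurkb. Among genes of chromosomes and spindle it was -0.81 for Mki67, -1.22 for Top2a, -1.04 for Kif11, -0.51 for Tpx2, -1.05 for Cenpe and -1.67 for Cenpf. In the checkpoint group it was -0.53 for Bub1b, -0.76 for Mad2l1, -1.85 for Cdc20 and -0.66 for Ube2c.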

How the results depend on the processing

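In the high experiment the number of members called lower was 33 to 35 under every alternative run (34 to 35 with 1 library left out), and the replicate block gave 35 as well and changed no call of a member. The replicate numbers share no more than a number, so the block is no pairing. For the difference of effects DESeq2 called 17 members in place of 34, and scaling by library size alone turned the sign of Tyms (-0.21, not called), ended the call of Cdt1 and added Birc5 and Bub1. At a 2-fold threshold 2 members were past it in the low experiment and 10 between the controls, in place of 8 and 20 at 1.5-fold. Scaling by library size alone gave 21 members past 1.5-fold in the low experiment, and log2 ratios of the summed level of -0.35 in the high and 0.62 in the low experiment. In the other pathway lists, calls in the higher direction were fewer in DESeq2 and without single libraries, the replication list going from 4 to 0 in DESeq2. Depth limits the low experiment most, where a count of 0 allows 0.122 CPM and the interval of Ccne2, near 3 CPM, spans over 2-fold.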

Other observations

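The replication-dependent histone genes (symbols Hist1h to Hist4h), whose products package new DNA in S phase and whose RNA lacks a poly(A) tail, were not among the lists and were looked at after the values of the 38 genes were seen. Of 60 tested in the high experiment, 57 were lower (33.2% of all genes), 0 were higher (32.8%) and 3 were not called in edgeR. The median log2 fold change was -0.98, and 28 were called and at least 2-fold lower (3.94% of all genes). Their summed level was 1399 and 1406 CPM with NT and 800 and 787 CPM with Satb1 siRNA. In the low experiment the sum was 169 CPM with NT and 175 CPM with Satb1 siRNA. The histone sum and that of the 38 genes therefore differed between the experiments by unlike amounts. The median control ratio, low NT minus high NT, was -6.85 over the 39 histone genes that passed the level filter. Their median low ratio was 0, the value of a gene without counts in either low library. For such a gene the control ratio depends on the prior count of 2. Reads of near-identical histone copies may be shared among them, and why the experiments differ in histone RNA was not tested.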
